A study of Mus musculus with 2 samples.

Results

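The genes described here build, regulate and excite the contractile apparatus of smooth muscle, and they were followed in mouse colon after mice had eaten 10% psyllium, a gel-forming plant fibre, for 5 days. The set was defined by a list of 49 gene names covering contractile, intermediate filament, calcium-handling and regulatory genes, with the actins left out. A gene was measured when at least 1 probe set was annotated to that gene and no other. This held for 47 of the 49 genes, through 51 of the 41345 probe sets, against 22180 genes measured in all. No such probe set was found for Itpr1 or Rock2, and neither is analysed here.

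Both arrays carried biotin-labelled total RNA from the colons of healthy male ICR mice, an outbred stock, aged 7 weeks. The control array represents mice on the diet without psyllium, and the psyllium array represents mice on the fibre diet for 5 days. Both arrays are labelled day 5. There is 1 array per diet. The labels do not give the number of mice behind each array, the segment of colon, or whether the muscle coats stayed on the tissue. With no replicate, a difference describes these 2 arrays, has no error of its own, and supports no test and no p-value. Levels are normalised intensities, and differences are log2 psyllium minus log2 control. A 1.5-fold difference corresponds to 0.58 on that scale.

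In smooth muscle, calcium entering through voltage-gated channels or leaving internal stores activates myosin light chain kinase. The phosphorylated myosin then pulls on actin filaments, which are anchored in dense bodies and in dense plaques at the membrane. Intermediate filaments link these anchors, and the dystrophin complex and caveolae organise the membrane between them. Many of the contractile genes are switched on by serum response factor, SRF, together with its cofactor myocardin, which act through a DNA element called the CArG box. In the colon wall such cells form the outer muscle coats, the muscularis mucosae and the walls of vessels.

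The defining smooth muscle genes were bright on both arrays, so the tissue held smooth muscle RNA under either diet. Smooth muscle myosin, Myh11, had an intensity of 2999 under the control diet and 6058 under psyllium. Colon and epithelial genes were bright as well: the mucin Muc2 read 9087 and 11892, and carbonic anhydrase Car1 read 10100 and 7791. Of 8 colon identity genes 7 were measured, none of them differed by 1.5-fold, and their median difference was -0.29. Below, a pair of intensities gives the control array first and the psyllium array second.

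Of the 47 measured genes, 46 were higher on the psyllium array and 1, Myl6, was lower by less than 1.5-fold. The difference reached 1.5-fold in 30 genes (63.8%) and 2-fold in 14 genes (29.8%), and none was 1.5-fold lower. Over the 11090 genes past an intensity filter, 4.03% lay at least 1.5-fold higher, 1.06% reached 2-fold, 2.42% lay at least 1.5-fold lower, and 42.7% had a difference above 0. The filter keeps a gene whose brighter array is at or above an intensity of 69.5, the median of that quantity. The median difference of the 47 genes was 0.75, which is 1.69-fold, beside -0.04 over the genes past the filter. Their middle differences, from the lower to the upper quartile, ran from 0.39 to 1.20. Among the 100 genes with the largest positive differences past the filter 13 belonged to the set, and among the first 500 there were 32. In RNA from a whole tissue, more cells of a type and more RNA per cell cannot be told apart.

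Cav3 and Myl6 did not pass the filter. Casq2, Sgca, Ryr2 and Sspn passed on the psyllium array alone, so their control values are dim and their differences uncertain. The other 41 genes lay above the filter intensity on both arrays, with a median difference of 0.81 and 29 genes at least 1.5-fold higher.

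**Figure D1:**
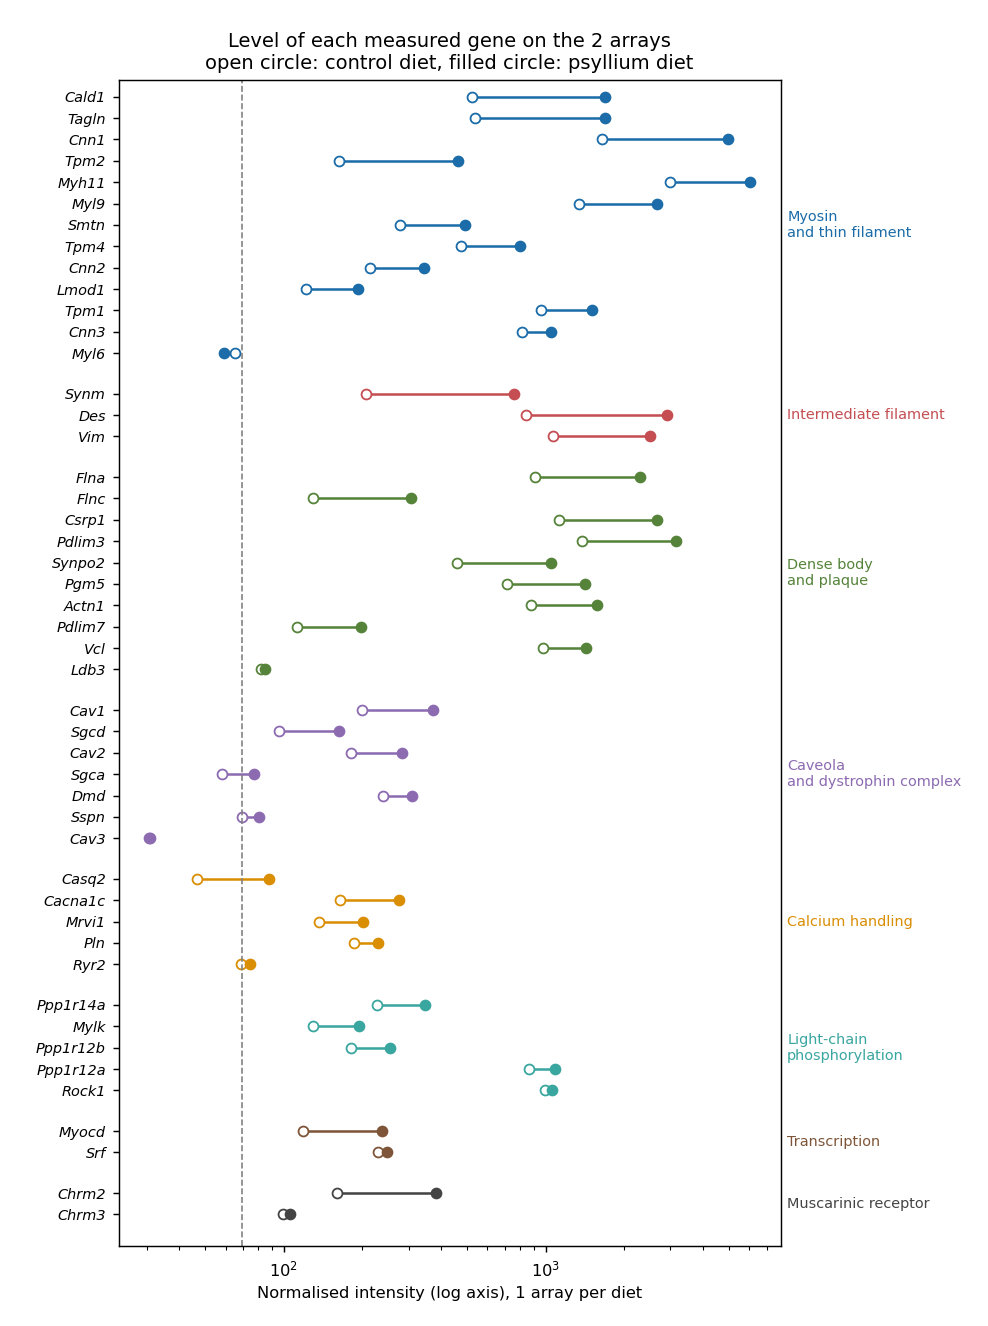
Normalised intensity (log axis) of the 47 measured genes on the control array (open circle) and the psyllium array (filled circle), grouped by role and ordered by difference; the dashed line is the filter intensity of 69.5. In 46 genes the filled circle lies to the right of the open one, and the longest lines belong to Synm, Des, Cald1, Tagln and Cnn1.

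Since many of these genes share control by SRF, their promoters were searched for the CArG box on both strands. Only its exact consensus was counted, a run of A or T bases between CC and GG. The run had a fixed length, as in the capitals below. The windows reached from 250 bases before to 50 bases after each annotated start. RefSeq windows of build GRCm38.p6 were found for 44 of the 49 genes, and Itpr1, Rock1, Tagln, Myocd and Myh11 had no entry. A CArG box stood in the window of 7 of the 44 genes (15.9%), against 1.81% of the 27025 genes in the promoter table. These are the stretches that hold it, shown because they let the element be set beside the expression differences. They are written in the direction of the gene, with the CArG box in capitals.
Myl9 (chr2:156775288-156775327, plus strand): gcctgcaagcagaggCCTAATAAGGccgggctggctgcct
Cnn2 (chr10:79988529-79988568, plus strand): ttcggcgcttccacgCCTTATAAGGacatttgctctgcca
Vcl (chr14:20929156-20929195, plus strand): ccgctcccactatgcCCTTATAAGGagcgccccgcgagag
Dmd (chrX:82948757-82948796, plus strand): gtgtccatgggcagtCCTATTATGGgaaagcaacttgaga
Srf (chr17:46556200-46556259, minus strand): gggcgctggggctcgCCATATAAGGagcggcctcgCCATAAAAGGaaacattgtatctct
Ldb3 (chr14:34588692-34588731, minus strand): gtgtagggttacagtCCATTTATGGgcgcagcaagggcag
Myl6 (chr10:128493035-128493074, minus strand): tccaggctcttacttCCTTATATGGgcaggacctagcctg

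Cnn2 and Vcl share the same CArG letters, and Srf carries 2 CArG boxes, the first beginning 82 bases before its annotated start. The 7 genes are listed by their difference, from 0.99 for Myl9 to -0.13 for Myl6. Their median difference was 0.37, and 2 of 7 were at least 1.5-fold higher. The 36 measured genes with a window and no CArG box in it had a median of 0.78, and 25 of them were at least 1.5-fold higher. Tagln, Myh11, Myocd and Rock1 were measured but had no window, so neither median includes them. They differed by 1.66, 1.01, 0.997 and 0.09. Myl6, among the 7 genes, and Cav3, among the 36, lay below the intensity filter on both arrays. Whether a CArG box goes with the size of the difference was not tested. A match is a description of the reference sequence, and the absence of one speaks only of the exact consensus in these windows. Boxes that deviate from the consensus were not searched for. The core of the TEAD binding motif, CATTCC, searched on both strands, stood in the windows of 14 of the 44 genes (31.8%) and of 16.6% of all genes. The 14 genes had a median difference of 0.65, and the 29 measured genes without it one of 0.76. Vcl was the 1 gene whose window held both motifs.

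The intermediate filament genes had the highest median of any class. Synm encodes synemin, which tethers intermediate filaments to the dystrophin complex and to adhesion sites. It read 205 and 758, a 3.69-fold difference that placed it at rank 18 of the 11090 genes past the filter. Des, desmin, the main intermediate filament protein of muscle, read 845 and 2915, which is 3.45-fold and rank 21. Vim, vimentin, is shared by smooth muscle, fibroblasts and other mesenchymal cells. It read 1066 and 2512 (2.36-fold), and its second probe set read 283 and 591 (2.08-fold). All 3 genes were thus more than 2-fold higher, with a median difference of 1.79.

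Among the 13 myosin and thin filament genes, 11 reached 1.5-fold and 5 of these reached 2-fold, all higher on the psyllium array, with a median difference of 0.82. The largest differences were those of proteins bound along the actin filament. Cald1, caldesmon, which restrains actin-activated myosin, read 522 and 1692 (3.24-fold, rank 26). Tagln, transgelin or SM22, an actin-bundling protein of differentiated smooth muscle, read 536 and 1691 (3.15-fold, rank 28). Cnn1, basic calponin, read 1638 and 4972 (3.04-fold, rank 34). Tpm2, beta-tropomyosin, read 162 and 462 (2.85-fold, rank 37). These 4 genes lay within a narrow band of differences, from 1.51 to 1.70.

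The myosin subunits lay lower than that band. Myh11 differed by 1.01, or 2.02-fold. Its regulatory light chain Myl9, the substrate of myosin light chain kinase, read 1340 and 2660, which is 1.99-fold. The 2 genes therefore differed by nearly the same factor. Myl6, the essential light chain, was read by a dim probe set at 65.0 and 59.4, below the filter on both arrays, so its difference of -0.13 says little about the gene. Of the other 46 measured genes 13 had a larger difference than Myh11.

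The remaining thin filament genes differed less. Smtn, smoothelin, read 277 and 491 (1.77-fold), and its dimmer second probe set 92.1 and 136 (1.47-fold). Tpm4 read 475 and 799 (1.68-fold), with 184 and 273 (1.48-fold) from the other probe set. In both genes the brighter probe set gave the larger difference, and the dimmer one stayed just under 1.5-fold. Cnn2 read 214 and 344 (1.61-fold), Lmod1, leiomodin, an actin filament nucleator, read 122 and 192 (1.58-fold), and Tpm1 read 963 and 1504 (1.56-fold). Cnn3, the calponin found in many non-muscle cells, read 811 and 1051, a difference of 0.37.

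The 10 genes of dense bodies, dense plaques and filament crosslinking had a median difference of 1.09. Of them 8 reached 1.5-fold and 5 of these reached 2-fold. Flna, filamin A, which crosslinks actin, read 915 and 2294 (2.51-fold, rank 53), and its muscle relative Flnc read 130 and 307 (2.37-fold). Csrp1, a LIM-domain protein of smooth muscle, read 1127 and 2659 (2.36-fold). Pdlim3, an alpha-actinin-binding protein, read 1373 and 3157 (2.30-fold). Synpo2, myopodin, an actin-binding partner of filamin, read 460 and 1050 (2.28-fold). These 5 genes differed by almost the same factor, from 1.19 to 1.33 on the log2 scale.

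Pgm5, aciculin, a protein of adhesion plaques without the enzyme activity of its relatives, fell just short of 2-fold, at 714 and 1421 (1.99-fold). Actn1, alpha-actinin, which anchors actin in dense bodies, read 879 and 1572 (1.79-fold), and Pdlim7 read 113 and 198 (1.75-fold). Vcl, vinculin, the linker between integrins and actin, is also abundant in other adherent cells and read 976 and 1426, a difference of 0.55 just under 1.5-fold. Ldb3, a Z-disc protein best known in striated muscle, was nearly level at 81.7 and 85.0.

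The membrane genes had a lower median than the 3 filament and anchor classes. Of 7 caveola and dystrophin complex genes 3 reached 1.5-fold and none reached 2-fold, with a median of 0.40. That median rests on dim genes: it was 0.52 over the 6 genes past the filter and 0.70 over the 4 above the filter intensity on both arrays. Cav1, the main caveolin of smooth muscle and endothelium, read 200.0 and 371 (1.86-fold), and its partner Cav2 read 181 and 282 (1.56-fold). Sgcd, delta-sarcoglycan, read 96.1 and 162 (1.69-fold). Dmd, dystrophin, read 239 and 309, a difference of 0.37. Sgca and Sspn, a sarcoglycan and sarcospan of the same complex, differed by 0.40 and 0.22. The second probe set of Sspn, below the filter on both arrays, differed by 0.60. Cav3, the caveolin of striated muscle, read 30.5 and 30.8, below the filter.

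Calcium handling genes had a median of 0.56, and 2 of the 5 measured genes were at least 1.5-fold higher. Cacna1c, the pore of the L-type calcium channel through which smooth muscle admits calcium, read 164 and 277 (1.69-fold). Casq2, calsequestrin, which buffers calcium in the store, read 46.6 and 88.2, a 1.89-fold difference from a control value below the filter. Mrvi1, a partner of the inositol trisphosphate receptor in relaxation by cyclic GMP, read 136 and 201 (1.47-fold). Pln, phospholamban, which restrains the calcium pump of the store, read 185 and 228, a difference of 0.30. Ryr2, a calcium release channel, read 68.6 and 74.2, close to the filter intensity on both arrays.

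Genes that set the phosphorylation of the myosin light chain were all higher on the psyllium array, most of them by less than 1.5-fold. Their median was 0.50, which is 1.41-fold, and 1 of 5 was at least 1.5-fold higher. That gene was Ppp1r14a, CPI-17, an inhibitor of myosin phosphatase, at 227 and 345 (1.52-fold). Mylk, myosin light chain kinase, lay just under the threshold at 130 and 194 (1.49-fold). The phosphatase targeting subunit Ppp1r12b, found mainly in muscle, read 180 and 255, a difference of 0.50. Its widely expressed relative Ppp1r12a read 866 and 1091, a difference of 0.33. Rock1, a kinase that inhibits the phosphatase, read 998 and 1060, a difference of 0.09.

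The paired regulators and receptors were split. Myocd, myocardin, the cofactor that confers smooth muscle specificity on SRF, read 119 and 237 (2.00-fold, rank 119), whereas Srf itself read 229 and 248, a difference of 0.11. Chrm2, the more abundant muscarinic acetylcholine receptor of gut muscle, read 160 and 383 (2.40-fold, rank 62). Chrm3, the receptor that drives contraction through phospholipase C and is also present on epithelium, read 99.3 and 105, a difference of 0.09. The gap between the differences was 0.88 for Myocd over Srf and 1.18 for Chrm2 over Chrm3. Across the 286 genes with a pair of probe sets past the filter, the median gap between the probe sets of the same gene was 0.19. Such probe sets read the same RNA on the same 2 arrays. Their gap therefore holds no variation between mice or arrays and is no error for the gaps above.

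**Figure D2:**
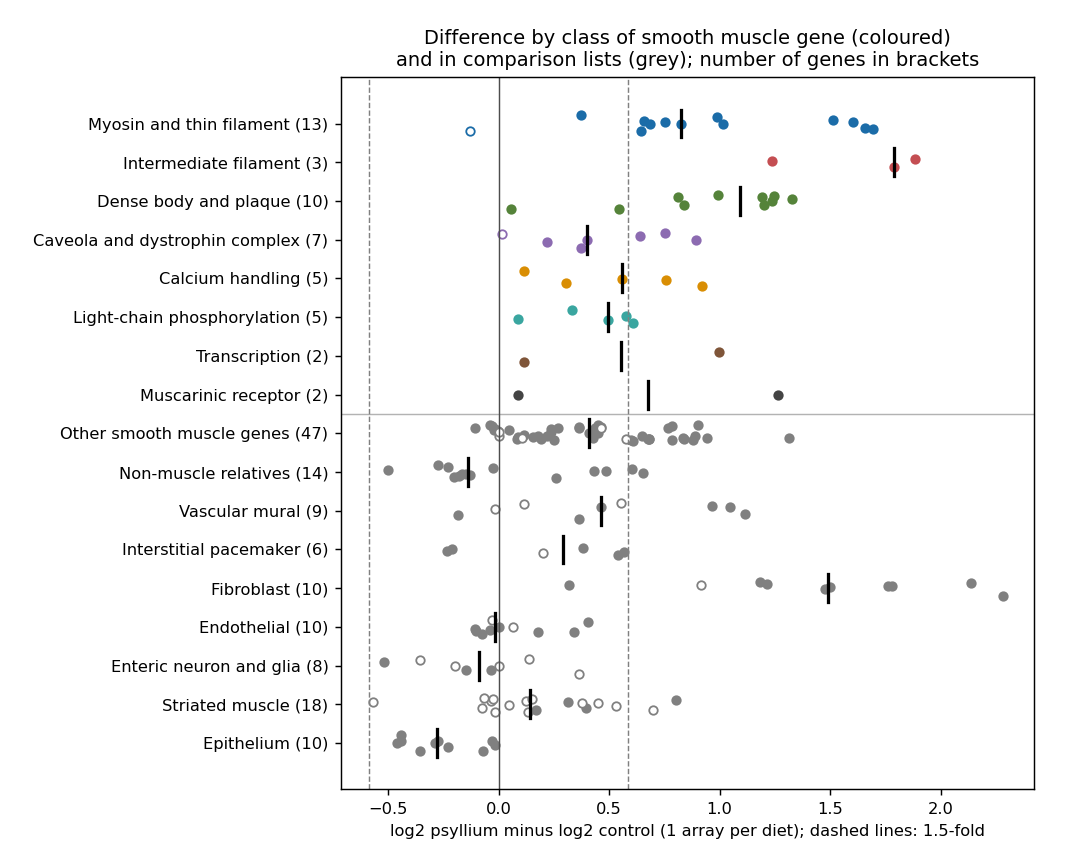
Difference (log2 psyllium minus log2 control, 1 array per diet) of each measured gene in the 8 classes of smooth muscle genes (coloured) and in comparison lists (grey); each point is a gene, open points did not pass the intensity filter, black bars are medians and dashed lines mark 1.5-fold. The intermediate filament, dense body and thin filament classes have medians of 1.79, 1.09 and 0.82, and the membrane, calcium and phosphorylation classes have medians from 0.40 to 0.56, the membrane one being 0.70 over genes above the filter intensity on both arrays.

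The size of the difference went with brightness in this set. Across the 47 genes the difference correlated with mean log2 intensity at Pearson's r = 0.55, where the points share the same pair of arrays, and across the genes past the filter r was -0.10. The 23 genes above the median intensity of the set had a median difference equal to that of Myh11, 1.01, and 19 of them were at least 1.5-fold higher. The other 24 had a median of 0.57, and 11 reached that fold. The part of brightness in the order of the classes was not tested.

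Several of these genes belong to families in which other members serve non-muscle cells. In a list of 14 measured non-muscle relatives 2 were at least 1.5-fold higher, Lmna, the nuclear lamin A (1.57-fold), and Ppp1r12c (1.52-fold). None was 1.5-fold lower, 9 of 14 had a negative difference, and the median was -0.14. Beside the difference of 1.01 for Myh11 stood -0.03 for Myh9, 0.48 for Myh10 and -0.27 for Myh14, the non-muscle myosin heavy chains. Myl9 differed by 0.99, whereas its non-muscle relatives Myl12a and Myl12b differed by -0.17 and -0.50. Tagln differed by 1.66 and Tagln2, which is widely expressed, by 0.43. Actn1 differed by 0.84 and Actn4 by -0.13, and Tpm3 differed by -0.18 where Tpm1, Tpm2 and Tpm4 differed by 0.64, 1.51 and 0.75. In the calponins the differences were 1.60 for Cnn1, 0.68 for Cnn2 and 0.37 for Cnn3. Dmd, at 0.37, lay only slightly above its relative utrophin, Utrn, at 0.26. Among the phosphatase subunits Ppp1r12c, which is outside the set, differed most, with 0.60 against 0.50 for Ppp1r12b and 0.33 for Ppp1r12a. Whether probes bind more than 1 member of such a family was not tested, and the gaps between relatives are uncertain to that extent.

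**Figure D3:**
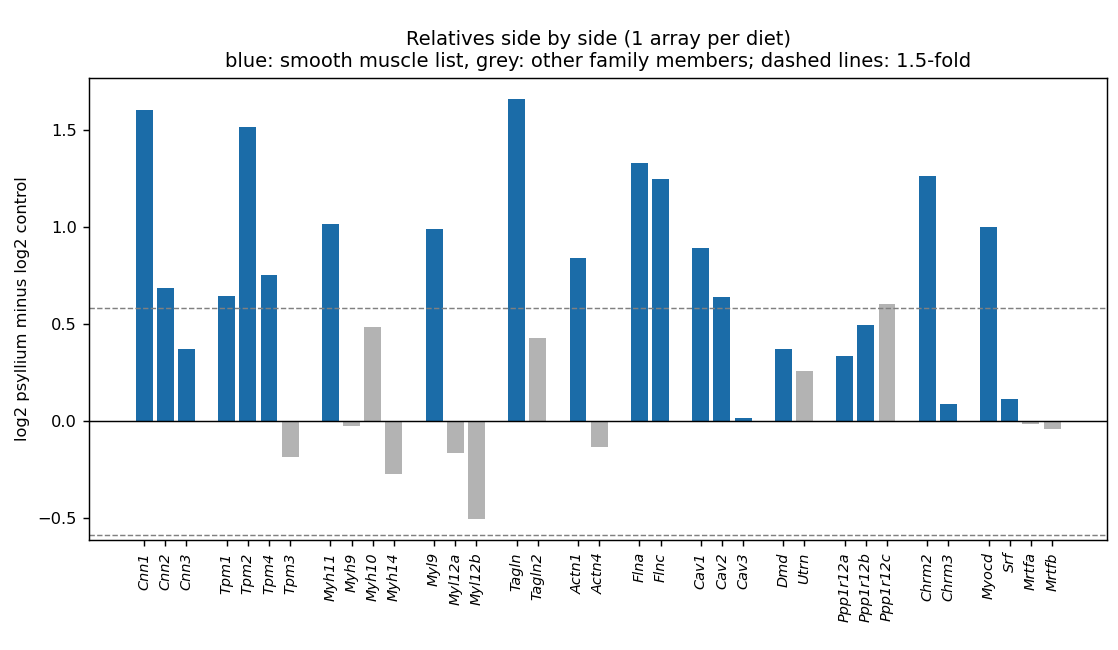
Difference (log2 psyllium minus log2 control, 1 array per diet) of relatives side by side, with genes of the smooth muscle set in blue and other family members in grey; dashed lines mark 1.5-fold. Cnn1, Tpm2, Myh11, Myl9, Tagln, Chrm2 and Myocd stand above their relatives, and Myl12b is the lowest bar at -0.50.

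Other genes that serve smooth muscle contraction, not all of them particular to muscle, were taken from a separate list of 50 names. Of these 47 were measured and 42 passed the filter, and they also lay mostly higher. Of the 47 measured, 16 were at least 1.5-fold higher, none was 1.5-fold lower and 6 had a negative difference, with a median of 0.41. Nexn, nexilin, an actin-binding protein, read 142 and 354 (2.49-fold). The small heat shock proteins of muscle Hspb7 and Hspb6 were 1.92-fold and 1.85-fold higher, and Cavin1, the caveola coat protein that works with Cav1, was 1.87-fold higher. The SRF cofactors Mrtfa and Mrtfb, which respond to actin assembly, differed by -0.02 and -0.04, where Myocd was 2.00-fold higher. The L-type channel subunits Cacna2d1 and Cacnb2 differed by 0.67 and 0.44, beside 0.76 for Cacna1c. Tacr2, the tachykinin receptor of gut muscle, differed by -0.11.

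Markers of other cells differed between the arrays to different degrees and in different directions, and their part in the smooth muscle differences was not tested. Of 10 fibroblast markers 9 were at least 1.5-fold higher, with a median of 1.49, and their summed intensity was 3907 and 9722. Past the filter were 9 of the 10, of which 8 reached 1.5-fold, and 7 lay above the filter intensity on both arrays. The marker that did not reach 1.5-fold was Pdgfra, at 545 and 678, a difference of 0.32. Mfap5, Lum, Col3a1 and Col1a1, all matrix genes, were 4.86-fold, 4.40-fold, 3.44-fold and 3.39-fold higher, Mfap5 from a control value below the filter. The summed intensity of the 47 smooth muscle genes was 23491 and 48429. Of 9 pericyte and vascular smooth muscle markers 3 were at least 1.5-fold higher, Mcam (2.17-fold), Cspg4 (2.07-fold) and Kcnj8 (1.95-fold). Their median was 0.46 and their sum 3966 and 5374. Rgs5, which alone read 2910 and 3746 of that sum, differed by 0.36. Pdgfrb, above the filter intensity on both arrays, differed by -0.19. Of the 9 markers 6 passed the filter, and over these the median was 0.71. Of the 9 markers 2 had a negative difference.

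The 10 epithelial markers were all lower, none by 1.5-fold, with a median of -0.28 and a summed intensity of 20340 and 17202. Krt8 and Krt20, keratins of the colon epithelium, differed by -0.03 and -0.44. None of the 10 endothelial markers passed 1.5-fold in either direction, with a median of -0.01 and sums of 1284 and 1383. Cdh5 and Pecam1, both junction proteins and the 2 brightest, differed by 0.18 and 0.34. Of the 10 endothelial markers 4 had a positive difference and 5 a negative one. None of the 8 measured enteric neuron and glia markers passed 1.5-fold either, with a median of -0.09 and sums of 654 and 562. Among them Snap25 differed by -0.52 and Ret by -0.15. Of the 8 markers 3 passed the filter, none of them a glia gene, so the list says little about glia. Snap25 alone read 272 and 190, which is most of the change in the sum. The 6 markers of interstitial cells of Cajal, the pacemaker cells that lie within the muscle coats, had a median of 0.29. Over the 5 that passed the filter the median was 0.38. The sums of the 6 were 1288 and 1686, and none reached 1.5-fold. Kit and Ano1 differed by 0.38 and 0.56, and 2 of the 6 had a negative difference.

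Striated muscle genes were mostly near the floor of the arrays. Of 18 such genes 4 passed the filter, and their summed intensity was 808 and 984. Ckm, muscle creatine kinase, was 1.75-fold higher (128 and 223), the only one past the filter to reach 1.5-fold. The median of the 18 was 0.14. No marker in any of these lists was at 0 on either array. That does not show that each was expressed, since dim probe sets also keep an intensity above 0.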

How the data were processed

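The authors' deposited table holds linear, already normalised intensity values of 1 control and 1 psyllium array. The submitters' processing notes list RMA and Affymetrix Expression Console and give no version. Whether the intensity is the antilogarithm of RMA's output, and the annotation and genome build, are not given in the sources used here. If RMA equalised the arrays, differences are relative to the bulk of transcripts. The number of arrays limits the precision.

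Of the 41345 probe sets, 23521 name 1 gene in GEO's platform annotation, 1814 name several and 16010 are unnamed here. Symbols were updated by gene number through a RefSeq table of assembly GRCm38.p6, which held 23328 of the 23521. Each gene was represented by its probe set with the highest mean log2 intensity. No pseudocount was used. Scripts ran in Python 3.11.15 with pandas 2.3.3 and statsmodels 0.14.6. The fold counts were tested on shuffled differences of these arrays with known shifts added. The quantile step was tested on a distorted copy of the control array. The class and promoter steps had no such test.

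The gene set, lists, filter and thresholds were chosen with earlier results of these data known. Every measured gene of the set is named. Of each comparison list up to 4 genes are named, those past the filter that differed most and by 1.5-fold or more, or else the 2 brightest. Myh9, Myh10, Myh14, Myl12a, Myl12b, Tagln2, Actn4, Tpm3, Utrn, Mrtfa and Mrtfb fall outside that rule. So do Cacna2d1, Cacnb2, Tacr2, Rgs5, Pdgfrb and Pdgfra. All of these genes were chosen after their values were seen.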

Additional observations from a re-analysis of the deposited data

Results flagged for a closer look

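Probe sets that name several genes were left out of the comparison. Of these, 4 name a gene of the smooth muscle set together with another gene, and 3 of the 4 lay below the intensity filter on both arrays. The remaining probe set names Pgm5 and Tmem252. It was brighter on the psyllium array than on the control array, at 352 against 218, a log2 difference of 0.69. The probe set naming Pgm5 alone differed by 0.99.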

How the results depend on the processing

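The 7 alternatives were the mean of a gene's probe sets, the probe set with the highest control value, quantile normalisation, removal of the trend on intensity, a pseudocount of 16, no filter, and the filter on both arrays. Across them the median difference of the genes past the filter ran from 0.73 to 0.82. The count at least 1.5-fold higher ran from 29 to 33, the count at least 2-fold higher from 14 to 17, and the count at least 1.5-fold lower was 0 throughout. The class medians ran from 0.82 to 0.98 for myosin and thin filament, from 1.77 to 1.86 for intermediate filaments, from 1.06 to 1.16 for dense bodies, from 0.40 to 0.70 for membrane genes, from 0.51 to 0.60 for calcium handling and from 0.46 to 0.55 for light-chain phosphorylation. The membrane median moved most: it was 0.40 with no filter, 0.52 over the genes past the filter and 0.70 over those above it on both arrays. The membrane, calcium and phosphorylation ranges overlap, so the order of these classes is not settled. None of these settings replaces replicate arrays, and dim genes remain uncertain. No paired analysis was possible because each diet has 1 array and no test was made.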
